A study of Caenorhabditis elegans with 2 samples.

Results

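The histone genes of *Caenorhabditis elegans* were examined for ChIP-seq regions of ETS-7, a member of the ETS family of transcription factors. They were taken as the protein-coding genes whose symbols start with his- or hil- in the Ensembl annotation of the WBcel235 (ce11) assembly, which are 80 gene records of 19985 in all. The 80 records carry 58 symbols, because the annotation gives several copies the same symbol, as for *his-15*. They encode 24 distinct proteins, since copies under different symbols can also encode the same one: all 16 H4 records, with 12 symbols, encode 1 protein. ChIP-seq reads out the DNA that an antibody pulls down with a protein to which it was crosslinked. Whole hermaphrodite early embryos of strain OP487, which stably expresses ETS-7 with a C-terminal GFP-FLAG tag, were collected 3 hours after synchronization by egg bleaching, and an antibody against GFP was used. The 2 biological replicates, which the labels number 3 and 4, form 1 group, so there is no contrast between conditions, the transgenic line serves as the only genotype, and whole embryos mix all cell types.

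The authors' lists held 595 regions in the optimal list, 11626 in the list of the pooled replicates, 16227 in that of replicate 3 and 15533 in that of replicate 4. The authors label the pooled list as peaks and background, the input to their irreproducible discovery rate analysis. The optimal list is the one that passed its threshold. A region of the pooled list alone may thus be background. Each region has a summit and a signal, which is the authors' own value. Its scale differs between the pooled list and those of the replicates, and may differ between the replicates. The highest signal was 941.1 in both the optimal and the pooled list. The lowest listed signal was 80.7 in the optimal list, 27.5 in the pooled list, 14.7 in replicate 3 and 12.9 in replicate 4. A gene was counted as having a region where a summit lay from 1000 bp upstream to 200 bp downstream of one of its annotated 5' ends, and the region of highest signal was taken. Read counts are not part of the files, so the depth is unknown, and the spread between the replicates is the only error available.

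Histones package DNA into nucleosomes. Pairs of H2A, H2B, H3 and H4 form the core around which DNA is wrapped, and H1 binds the linker DNA between cores. Core histones are made in large amounts during DNA replication, and in *C. elegans* their genes lie in clusters of repeated copies, many of them as divergent pairs (H3 with H4, H2A with H2B) that share the DNA between their starts. Variant histones such as H3.3 are also used outside replication, and early embryos divide rapidly.

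Of the 80 records, 2 had an optimal region in the promoter, 2.5% against 2.07% of all protein-coding genes. In the pooled list 23 had a region, 28.8% against a background of 21.6%. Replicate 3 had 26, 32.5% against 26.4%, and replicate 4 had 22, 27.5% against 26.3%. In both replicates there were 20, 25% against 15.4%. The shares lay near the background in the optimal list and in replicate 4, and above it in the pooled list, in replicate 3 and in both replicates together. No test was made of these differences. With the 595 regions of highest signal of replicate 4 in place of the optimal list the first count was 4, with *his-61* and *his-62* added, and with those of replicate 3 it was 3, with *his-37* added. In all, 28 records had a region in at least 1 list and 52 had none. The highest pooled regions of the 23 records were 15 distinct regions, of which 8 served 2 records each, 16 in all, and 7 served 1 record each. Their median pooled signal was 59.5, against 38.1 for the 4310 protein-coding genes with a pooled region.

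By class, a pooled region lay in the promoter of 7 of 16 H4 records, 7 of 21 H3 records, 4 of 17 H2A records, 2 of 17 H2B records and 3 of 9 H1 records. The median pooled signals of those records were 61.5 for H4, 59.5 for H3, 54.2 for H1, 49.4 for H2A and 48.9 for H2B. The class values are not independent, since 5 pairs of H3 and H4 and 2 pairs of H2A and H2B had 1 region for both genes. The H2B median rests on 2 values, which are also H2A values. The H1 median is the value of *hil-7*, whose product is named H1 but whose protein aligned best to H2B. The H3 and H2B totals include short proteins, *his-73* with 46 residues and *his-39* with 67. Over all protein-coding genes, 21.6% had a pooled region. By chromosome, the counts were 2 of 4 on I, 0 of 14 on II, 1 of 3 on III, 10 of 24 on IV, 6 of 30 on V and 4 of 5 on X. The 14 records on chromosome II had no region in any of the 4 lists.

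**Figure D1:**
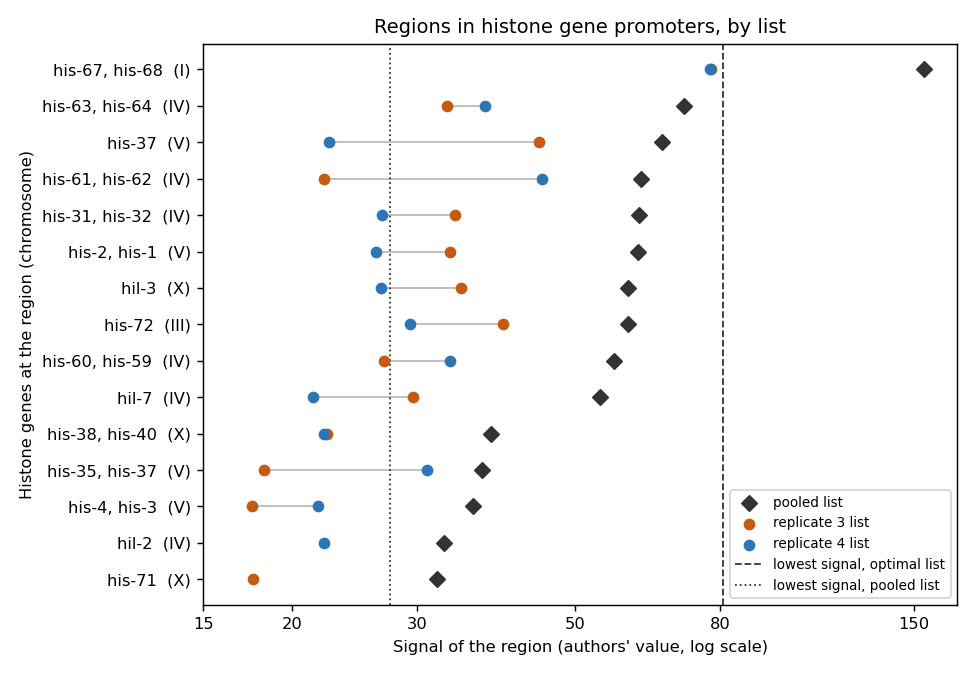
The signal (authors' value, log scale) of the 15 regions chosen for histone genes, in the pooled list (diamonds) and for the overlapping region of replicate 3 and replicate 4 (circles joined by a line). The dashed and dotted lines mark the lowest signals of the optimal and pooled lists, 80.7 and 27.5. The region of *his-67* and *his-68* lies past the dashed line at 154.9, and the others lie between 31.9 and 71.1.

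The region of highest signal lay between *his-67*, an H4 gene, and *his-68*, an H2A gene, at chrI:9988770-9989249. Its signal was 154.9 in the pooled list and 77.7 in replicate 3 and 77.4 in replicate 4, where it ranked 130 and 128. It ranked 123 of 11626 in the pooled list and was the only region in a histone promoter that was also in the optimal list. Its summit lay 122 bp upstream of *his-68* and 247 bp upstream of *his-67*, between the genes, and also in the promoter window of *alg-5*, an Argonaute gene. The replicates' summits were 12 bp apart. All 36-mers of the region occur once in the genome. This was the only divergent pair of an H4 and an H2A gene among the 31 histone pairs.

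On chromosome IV, the region at the H3 gene *his-63* and the H4 gene *his-64* came next among histone regions. Its pooled signal was 71.1, with 33.0 in replicate 3 and 37.4 in replicate 4. The region lay at chrIV:11406893-11407372, with its summit 17 bp inside *his-64*, and 52.8% of its 36-mers occur once in the genome, the lowest share of the 15 regions. Elsewhere on this chromosome, 4 histone genes at chrIV:7485834-7488659 all had a region. Between *his-61* (H2A) and *his-62* (H2B) the pooled signal was 61.9, with 22.2 in replicate 3 and 45.0 in replicate 4. That pair had the widest gap between the replicates of all histone regions, with a log2 ratio of replicate 3 to replicate 4 of -1.02. Between *his-60* (H4) and *his-59* (H3) the pooled signal was 56.7. The highest regions of these promoters had signals of 26.9 in replicate 3 and 33.4 in replicate 4, with summits 216 bp apart. That replicate 3 summit lay 183 bp inside *his-60*, and another replicate 3 summit lay between the genes. The H4 and H3 genes *his-31* and *his-32* had a region with a pooled signal of 61.5, with 33.9 in replicate 3 and 26.7 in replicate 4. They lie at the centre of a 6-record cluster whose 4 outer records, copies of *his-29* and *his-30*, had no region in any list.

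On chromosome V, 4 genes at chrV:16040144-16042831 all had a region. Between the H3 gene *his-2* and the H4 gene *his-1* the pooled signal was 61.3, with 33.4 in replicate 3 and 26.2 in replicate 4, and the replicates' summits were 1 bp apart. Between the H2B gene *his-4* and the H2A gene *his-3* the pooled signal was 35.9, with 17.6 and 21.8. The H3 and H4 pair thus had the higher signal of the 2 neighbouring pairs in the pooled list and in each replicate. At *his-37*, an H4 gene that stands apart from a divergent pair, the region at chrV:9546765-9547244 had a pooled signal of 66.2. The overlapping regions had signals of 44.6 in replicate 3 and 22.5 in replicate 4, a log2 ratio of 0.99. The highest region of replicate 4 in the *his-37* promoter was another one, with a signal of 30.9, and its summit lay 674 bp from that of replicate 3. The neighbouring H2A gene *his-35* had a pooled signal of 37.0 and a signal of 18.3 in replicate 3, with the pooled summit at -920 bp from its 5' end, inside *his-41* and nearest to the 5' end of *C50F4.6*. The region that overlapped it in replicate 4 was the one with signal 30.9, a log2 ratio of -0.76, but its summit lay outside the *his-35* window. On the X chromosome, the H4 and H3 pair *his-38* and *his-40* shared a region whose signal was 38.1 in the pooled list, 22.4 in replicate 3 and 22.2 in replicate 4.

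Over the 20 records with a region in both replicates, the median log2 ratio of replicate 3 to replicate 4 was 0.01 (SD 0.45). It ranged from -1.02 to 0.53, with 12 records higher in replicate 3 and 8 higher in replicate 4. The value of 0.53 is that of *his-37*, where the highest regions of the replicates were different ones and the overlapping regions gave 0.99. Of the 20 records, 16 are pairs with the same replicate regions, so the values are 12 distinct ones. Counted once each, their median was 0.18 (SD 0.46), with 8 higher in replicate 3 and 4 in replicate 4. Over all 3086 protein-coding genes with both, the median was 0.11 and the SD 0.49, so the histone records spread about as much as other genes. The summits of the replicates lay 1 to 674 bp apart, with a median of 40.5 bp.

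H3.3 is the variant of H3 that is laid down outside replication. Of the 5 genes of H3.3 and H3.3-like proteins examined, 2 had a pooled region, where 21.6% of all protein-coding genes had one. The 2 were *his-72* and *his-71*, whose products are named H3.3, while those of *his-69*, *his-70* and *his-74* are named H3.3-like. At *his-72* on chromosome III the pooled signal was 59.5, with 39.6 in replicate 3 and 29.3 in replicate 4, and the replicates' summits were 333 bp apart. The pooled summit lay inside the gene, in the promoter window of a transcript that starts further downstream, and 155 bp from a snoRNA gene, *Y49E10.36*. A weaker pooled region in the same promoter, with signal 50.7, had its summit 51 bp inside the 5' end and overlapped the same region of replicate 4. At *his-71* on the X chromosome the pooled signal was 31.9, with 17.6 in replicate 3 and no region in replicate 4. *his-69*, *his-70* and *his-74*, with windows 87.7% to 100% single-copy by the measure described next, had no region in the promoter in any list. The nearest pooled summit to *his-70* lay at -1030 bp, just outside the window.

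Among the 9 linker histone genes, *hil-3*, *hil-7* and *hil-2* had a pooled region. *hil-3* on the X chromosome had a pooled signal of 59.5, with 34.6 in replicate 3 and 26.7 in replicate 4, and a summit 46 bp inside the gene. *hil-7* had a pooled signal of 54.2, with 29.6 and 21.4, and its summit lay 275 bp from a snoRNA gene, *C01B10.48*. *hil-2* had a pooled signal of 32.7, a region in replicate 4 with signal 22.1, none in replicate 3, and a pooled summit 355 bp from the microRNA gene *cel-mir-8201*. The summit in replicate 4 lay 265 bp from that pooled summit. It lay 5 bp from the summit of a weaker second pooled region at *hil-2*, with signal 27.8. The part of these small RNA genes in the signals at *his-72*, *hil-7* and *hil-2* was not tested. *hil-5* and *his-24*, the latter one of the main H1 genes, had regions in the promoter in replicate 3 alone, with signals of 16.7 and 16.1. A replicate 4 summit lay inside each of these genes, outside the promoter window. The nearest pooled summit to *his-24* lay at -1043 bp. *hil-1*, *hil-4*, *hil-6* and *hil-8* had no region in the promoter in any list, and their windows were 85.2% to 100% single-copy.

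Repeated copies set many histone promoters apart from those of other genes. For each promoter window, the single-copy share was computed, which is the percentage of its 36-mers with a single occurrence when both strands of the genome are searched. The median share was 42.7% for the 80 histone records and 100% for all protein-coding genes. It was 87.3% for the 23 records with a pooled region, with a lowest value of 51.2%, and 10.6% for those without one. Of the 40 records with a share under 50%, 0 had a region in any list. Of all genes with such windows, 5.12% had a pooled region, 0.439% an optimal one, 6.44% one in replicate 3 and 6.15% one in replicate 4. Of the 40 records with a share of at least 50%, 23 had a pooled region, 57.5% against 22.1% of all genes with such windows, and 20 had a region in both replicates, 50% against 15.9%. Among windows of at least 90%, 9 of 17 had a pooled region, 52.9% against 22.7%. The 50% limit was chosen after the values were seen. None of the 36 records that share their symbol with another had a region in any list, against 23 with a pooled region among the 44 with a symbol of their own. The sources used here do not say how the authors treated reads that align to several places. The part of repeated sequence in the absence of regions was not tested.

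**Figure D2:**
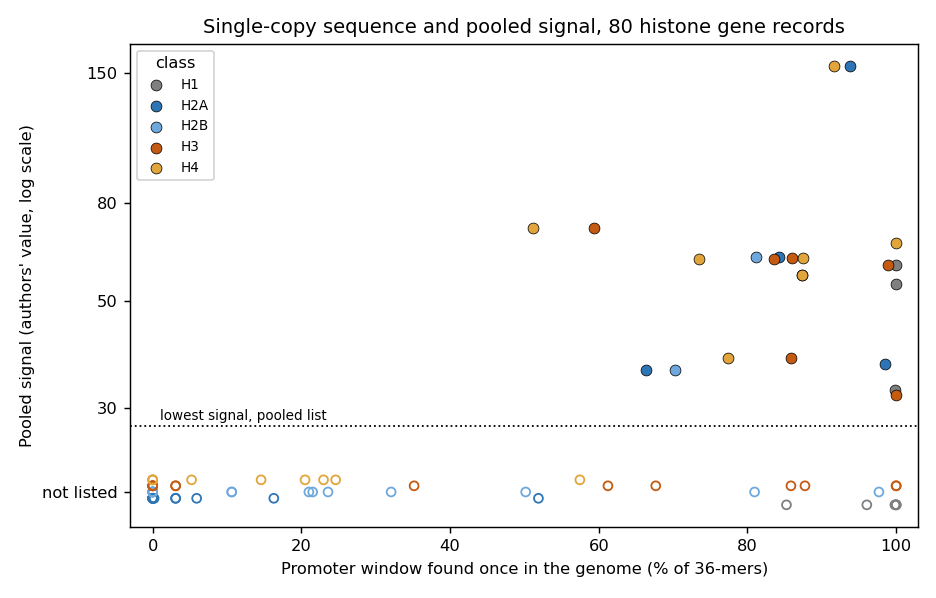
Pooled signal (authors' value, log scale) against the share of the promoter window's 36-mers found once in the genome, for 80 histone gene records coloured by class. Open circles in the row marked not listed have no pooled region and are set apart by class to keep them visible. The 23 filled circles lie at 51.2% or above.

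**Figure D3:**
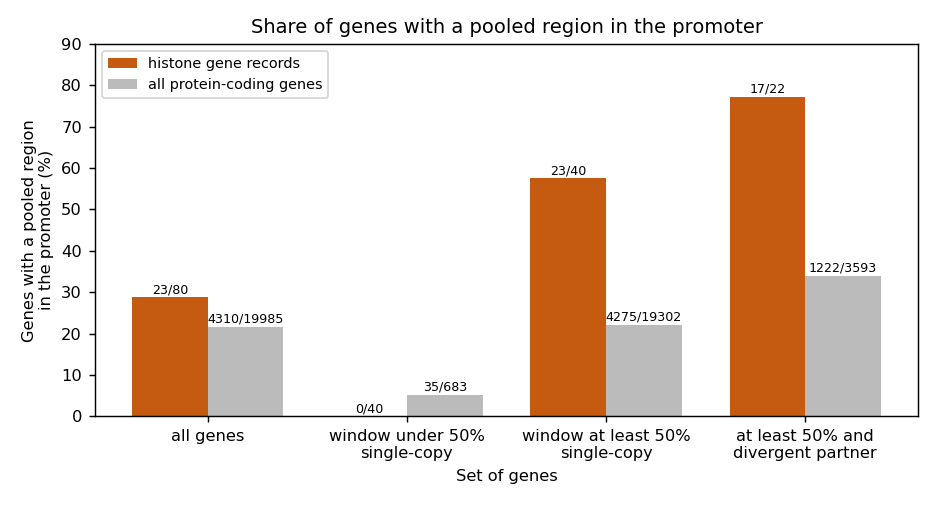
Share of genes with a pooled region in the promoter, for histone gene records (orange) and all protein-coding genes (grey), with counts above the bars. The shares are 28.8% and 21.6% over all genes, 0% and 5.12% for windows under 50% single-copy, 57.5% and 22.1% for windows of at least 50%, and 77.3% and 34% for such windows with a divergent partner.

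In 5 clusters of repeated copies no list had a region. At chrII:13817760-13828697, 13 records with 6 symbols span 10938 bp, of which 7.05% of 36-mers are single-copy. At chrV:8847393-8854053, 6 records lie in sequence with no single-copy 36-mer, and at chrV:8889488-8898539, 8 records lie in sequence with 1.08%. On chromosome IV, 4 records at chrIV:11324056-11326998 and 4 at chrIV:11337853-11341703 lie in sequence with 3.61% and 24.0%. None of these 5 clusters had a summit within its span in any list. Another cluster, at chrV:8532715-8536716, is 61.9% single-copy and holds *his-8*, *his-7*, *his-6*, *his-5* and *his-39*. It had no pooled region, but replicate 4 had one at *his-7* with signal 18.0, and replicate 3 had one with signal 16.7 in the promoters of *his-6* and *his-39*.

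The histone genes form 31 divergent pairs, in which the annotated 5' ends of neighbouring genes lie within 1000 bp of each other. The interval between the 5' ends was 227 to 368 bp long, with a median of 258 bp. There were 14 pairs of H3 and H4, 16 of H2A and H2B and 1 of H4 and H2A. A single pooled region lay in both promoters at 8 pairs, 5 of H3 and H4, 2 of H2A and H2B and the pair of *his-67* and *his-68*. In 7 of the 8 the summit of this region lay between the 5' ends, and in the other, at *his-63* and *his-64*, 17 bp inside *his-64*. Weaker pooled regions also had summits inside a gene of such a pair, 201 to 241 bp from its 5' end. Their signals were 55.9 in *his-64*, 46.6 in *his-59*, 33.8 in *his-32* and 33.4 in *his-3*. A ninth pair, *his-35* and *his-41*, had a region in the *his-35* promoter with no summit between the genes. Of the 31 intervals, 17 occur more than once in the genome as exact copies, and none of those pairs had a region in any list. Of the 14 intervals that occur once, 9 had a pooled region. Over the 62 records with a divergent histone partner, 17 had a pooled region, 27.4% against 33% of the 3749 protein-coding genes with a divergent protein-coding partner. For windows of at least 50% single-copy, a limit set after the values were seen, this was 17 of 22, 77.3% against 34%. Of these 17 records, 16 are the genes of the 8 pairs with 1 region for both, so they are not independent.

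**Figure D4:**
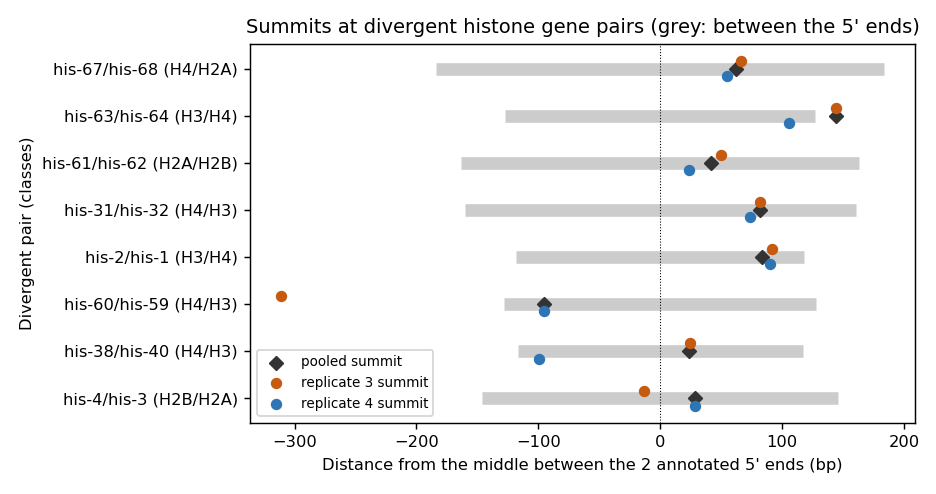
Distance in bp of the summits from the middle between the annotated 5' ends of 8 divergent histone pairs, for the pooled list (diamonds) and the replicates (circles). Grey bars span the interval between the 5' ends, from 234 to 368 bp long. The pooled summits are those of the regions in both promoters. They lie 23.5 to 144.5 bp from the middle, and that of *his-63* and *his-64* lies past the end of its bar.

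Sequence between divergent genes is shown for 3 pairs with a pooled region, each beside a closely similar pair without one, to show where the sequences differ. These comparisons were chosen after the values were seen. The sequences are the middles of the intervals on the plus strand of RefSeq WBcel235, with 50 bases left out at each end, because the annotated 5' end is the coding start for 65 of the 80 records. Capitals mark the bases that differ from, or are missing in, the other pair. The pooled summits at *his-63* and *his-64* (chrIV:11407133) and at *his-2* and *his-1* (chrV:16042485) lie outside the bases shown. The one at *his-4* and *his-3* (chrV:16040690) lies within them. *his-63* and *his-64*, at chrIV:11406912-11407065, had a pooled signal of 71.1, and *his-45* and *his-46*, at chrIV:11338314-11338471, had no region. Over the whole intervals they are 93.8% identical, but 85.4% of the 36-mers of the former occur once in the genome and 16.1% of those of the latter.
his-63/his-64: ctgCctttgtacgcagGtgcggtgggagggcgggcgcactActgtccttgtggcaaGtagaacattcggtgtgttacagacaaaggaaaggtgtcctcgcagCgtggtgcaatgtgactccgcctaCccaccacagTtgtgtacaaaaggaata
his-45/his-46: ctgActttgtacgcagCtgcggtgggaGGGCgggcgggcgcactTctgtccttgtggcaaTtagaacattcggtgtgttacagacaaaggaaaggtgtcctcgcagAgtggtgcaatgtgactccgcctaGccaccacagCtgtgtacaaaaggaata

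The second comparison is between H3 and H4 pairs whose intervals are both largely single-copy. *his-2* and *his-1*, at chrV:16042334-16042469, had a pooled signal of 61.3 and a single-copy share of 100% over the interval. *his-6* and *his-5*, at chrV:8535028-8535163, had no pooled region and a share of 85.6%. Over the 500 bp around the middle of the interval, the share was 81.5% for *his-2* and *his-1* and 61.5% for *his-6* and *his-5*. Their intervals are 90.3% identical, and 13 of the 136 bases shown differ.
his-2/his-1: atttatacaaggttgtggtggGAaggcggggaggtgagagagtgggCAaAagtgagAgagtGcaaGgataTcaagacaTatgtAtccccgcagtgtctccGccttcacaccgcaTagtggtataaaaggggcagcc
his-6/his-5: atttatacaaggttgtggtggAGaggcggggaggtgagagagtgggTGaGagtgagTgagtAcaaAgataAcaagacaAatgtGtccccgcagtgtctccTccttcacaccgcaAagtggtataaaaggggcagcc

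The last comparison is between H2B and H2A pairs. *his-4* and *his-3*, at chrV:16040566-16040757, had a pooled signal of 35.9 and a share of 100%. *his-8* and *his-7*, at chrV:8533137-8533328, had no pooled region and a share of 79.4%. Over 500 bp the share was 57.6% for *his-4* and *his-3* and 52.7% for *his-8* and *his-7*. Their intervals are 87.0% identical, and 31 of the 192 bases shown differ. In these later comparisons, unlike the first, the interval of the pair without a pooled region is also mostly single-copy. Among the 22 pairs without a pooled region, 20 have intervals under 50% single-copy, and these 2 pairs are the exceptions.
his-4/his-3: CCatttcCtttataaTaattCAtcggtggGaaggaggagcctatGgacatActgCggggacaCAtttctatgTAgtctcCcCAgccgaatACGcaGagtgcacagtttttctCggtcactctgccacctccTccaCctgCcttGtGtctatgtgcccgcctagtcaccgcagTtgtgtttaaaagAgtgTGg
his-8/his-7: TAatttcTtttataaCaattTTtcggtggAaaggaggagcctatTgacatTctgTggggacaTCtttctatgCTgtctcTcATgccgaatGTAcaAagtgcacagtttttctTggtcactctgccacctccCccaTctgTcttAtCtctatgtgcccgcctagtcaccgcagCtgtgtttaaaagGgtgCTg

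The hexamer CCGGAA, which holds the core of the sequence that ETS proteins are known to bind, was searched on both strands. It was within 100 bp of the summit at 0 of the 15 histone regions. The same hexamer was there at 14.1% of all 11626 pooled regions and at 15.6% of the 595 optimal ones. A weaker second region at *hil-2*, with signal 27.8, did hold it. Its summit was the one that lay 5 bp from the *hil-2* summit in replicate 4. In promoter sequences from 250 bp upstream to 50 bp downstream it was in 0 of 80 histone records, against 8.56% of all protein-coding genes. None of the 31 intervals held it. Repeated copies and divergent pairs share sequence, so the 80 promoters are not independent. The hexamer TATAAA, the core of the TATA box at which the transcription machinery assembles, was within 100 bp of the summit at 8 of the 15 regions, against 16.6% of all pooled regions. It was in the promoter sequence of 51 of 80 histone records, 63.8% against 38.0% of all genes. It was found in 56.5% of the 23 with a pooled region and in 66.7% of the 57 without, so its share was not higher at promoters with a region. In the sequences above it occurs in both members of the second and of the last comparison and in neither of the first. A match is a description of the letters and not a binding site.

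Genes that act with histones were looked at from a list of 18, of which 17 names are in the annotation. They encode variant histones not named his-, histone chaperones and the protein that binds histone mRNA. An optimal region lay in the promoter of 2 of the 17, 11.8% against 2.07% of all protein-coding genes. A pooled region lay in 9, 52.9% against 21.6%, and regions of both replicates in 11, 64.7% against 15.4%. No test was made of these shares. *chaf-2*, which encodes a subunit of the chromatin assembly factor CAF-1, had a pooled signal of 161.6, with 88.1 in replicate 3 and 74.1 in replicate 4. *unc-85*, which encodes an ASF1-type chaperone of H3 and H4, had 117.4, with 64.2 and 54.2. Both were in the optimal list, and the *chaf-2* region also lay in the promoter window of *Y71G12B.30*. The signal at *chaf-2* was close to the 154.9 of the *his-67* and *his-68* region, and that at *unc-85* was higher than at every histone region but that one. *cdl-1*, which encodes the protein that binds the stem-loop of histone mRNA, had a pooled signal of 52.1, with 38.0 and 22.1. *hcp-3*, which encodes the centromeric variant of H3, had 48.1, with 23.5 and 26.2. *htz-1*, which encodes the H2A.Z variant, had 32.5, with 21.1 and 15.7, and its summit was nearer to the 5' end of *wapl-1*. The *cdl-1* region also lay in the promoter window of *ect-2*. The other 4 with a pooled region were *spr-2*, *spt-16*, *nasp-1* and *chaf-1*, with pooled signals of 62.5, 51.6, 38.7 and 32.6. *cpar-1*, *rba-1*, *nap-1*, *hmg-3* and *hmg-4* had no region in any list, *asfl-1* had one in replicate 4 alone, and *hira-1* and *lin-53* had one in each replicate and none in the pooled list.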

How the data were processed

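Early embryos of 1 group with 2 biological replicates were measured. Per the file headers and labels, the authors derived lists of regions for each replicate, for the pooled alignments and as an optimal list after irreproducible discovery rate analysis, on ce10 and ce11. The ce11 lists were used. The deposited signal per region was used as given, with the deposited summit offset. The sources used here name no aligner, peak caller, read length or signal scaling, and controls and signal tracks were not analysed here. No read counts are given, so depth is unknown.

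Genes came from Ensembl 115 and sequence from RefSeq WBcel235, both 1-based. Histone genes at most 10 kb apart formed 1 of 27 loci. Class came from the RefSeq product name for 76 records and otherwise from protein alignment (Biopython 1.88). Single-copy share used 36-mers, an assumed read length. No test was made, since there is 1 group. Alternatives were the window, overlap of any base, nearest gene, small RNA genes, stricter lists, each replicate left out, symbols or shared regions counted once, single-copy windows and 50-mers. Genes named are those with an optimal region, those at the 12 regions of highest pooled signal, all hil- genes, *his-24*, the H3.3 and H3.3-like genes, and those at the 3 regions with the largest replicate ratio. Others were named for a comparison after their values were seen. Members and lists were chosen with earlier results of these data known. Scripts (Python 3.11.15, NumPy 2.4.6, pandas 2.3.3, matplotlib 3.10.9) were tested on simulated data.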

Additional observations from a re-analysis of the deposited data

How the results depend on the processing

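The count of 2 records with an optimal region was 3 to 4 when a replicate was left out and the 595 regions of highest signal of the other were taken. Without replicate 4 it was 3, with *his-37* added, and without replicate 3 it was 4, with *his-61* and *his-62* added. Restricted to promoter windows at least 90% single-copy, chosen after the data were seen, the counts were 9 for the pooled list and 6 for both replicates, since 17 of the 80 records have such windows. The other settings left each count within 1.5 times its main value: 21 to 26 for the pooled list and 18 to 23 for both replicates. All distinct pooled regions with a summit in a histone promoter numbered 23, the 15 chosen ones and weaker ones beside them. That count was 16 to 26 in the other settings. The median log2 ratio was recomputed with the narrower window, any base, the nearest gene and without regions near small RNA genes, and was 0.01 in each. With each pair of replicate regions counted once, added after the data were seen, it was 0.18, within the SD of 0.45. It was not recomputed in the other settings. With 50-mers, the median single-copy share was 94.8% for records with a pooled region and 10.8% for those without. No paired analysis was possible because there is only 1 group. The unknown depth limits every statement on genes without a region.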

Other observations

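Of the histone genes with no pooled region in the promoter, 3 held a pooled summit within the gene. One, with signal 32.9, lay in *his-74*, 129 bp from the 5' end of *ccch-3*. Another, with signal 28.7, lay in *hil-1*. The last, in *his-41*, is the region with signal 37.0 in the promoter of *his-35*.

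Short sequences were counted in the promoters after the data were seen, so they are descriptions. GGACAC, on either strand, was in 65 of 80 histone promoters, 81.3% against 6.24% of all protein-coding genes. AGGCGG was in 71.3% against 6.74%. CACCGC was in 60% against 6.03%, in 9 of 9 divergent pairs with a pooled region and in 16 of 22 without. GGACAC was in 6 of 9 and 21 of 22 of those pairs. Repeated copies share their promoters, so the counts are not of independent sequences.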
